A study of Rattus norvegicus with 4 samples.

Results

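Mitosis genes, which encode the kinases, spindle motors, kinetochore proteins and cytokinesis factors that a dividing cell needs, were followed in retinal neurospheres grown with and without medium conditioned by endothelial cells. The group was defined by name as 51 genes, of which 45 had a probe set annotated with exactly 1 gene symbol, out of 14218 genes with such a probe set on the array. A probe set is the group of short probes that reports 1 transcript, and each gene was read through its brightest one. The 6 genes not analysed here were Cdc25c, Tpx2, Kif4a, Ndc80, Ncapg and Anln. The neurospheres, which are floating clusters of proliferating cells, were grown from dissociated retina of embryonic day 18 Sprague Dawley rats. In the ECCM group (2 arrays) the medium held EGF and endothelial cell conditioned medium, and in the EGF group (2 arrays) it held EGF alone, so epidermal growth factor, a mitogen for retinal progenitors, was present in every culture. Retinal cells of 10 embryos were pooled for a culture, and a further pool gave the biological replicates, so each array is a pool of embryos and of all the cell types that survive in a sphere.

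Cells that divide switch on most of these genes together in G2 and M phase and switch them off again after division, while cells that have left the cycle hold little of their transcripts. Cyclin B and its kinase start mitosis, the kinetochore and the spindle checkpoint control the attachment of chromosomes to the spindle, the anaphase-promoting complex triggers their separation, and the midzone proteins divide the cell. In the retina at this age, dividing progenitors are found beside neurons that no longer divide. The arrays measured a whole sphere, so more cells in division and more of each transcript per dividing cell cannot be told apart.

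All 45 genes were higher in the ECCM neurospheres, and on each of them both ECCM arrays lay above both EGF arrays after quantile normalization (33.6% of all 11492 genes tested did so in this direction). Of the 45, 44 were called higher (limma, adjusted p under 0.05), against 16.5% of all genes tested, and 0 were called lower (14.6% of all genes tested). The median difference was 0.71 log2, with a range of 0.35 to 1.32 log2, beside a median of 0.00 log2 over all genes tested. On this scale 3 of the 45 reached a difference of 1 log2, a doubling of the signal, as 2.27% of all genes tested did. On the values as deposited 27 of the 45 reached it (11.5% of all genes tested), and with arrays centred on their median 1 did (2.11%). Of the 45, 38 lay above percentile 90 of all genes tested (0.54 log2) and 17 above percentile 95 (0.75 log2).

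**Figure D1:**
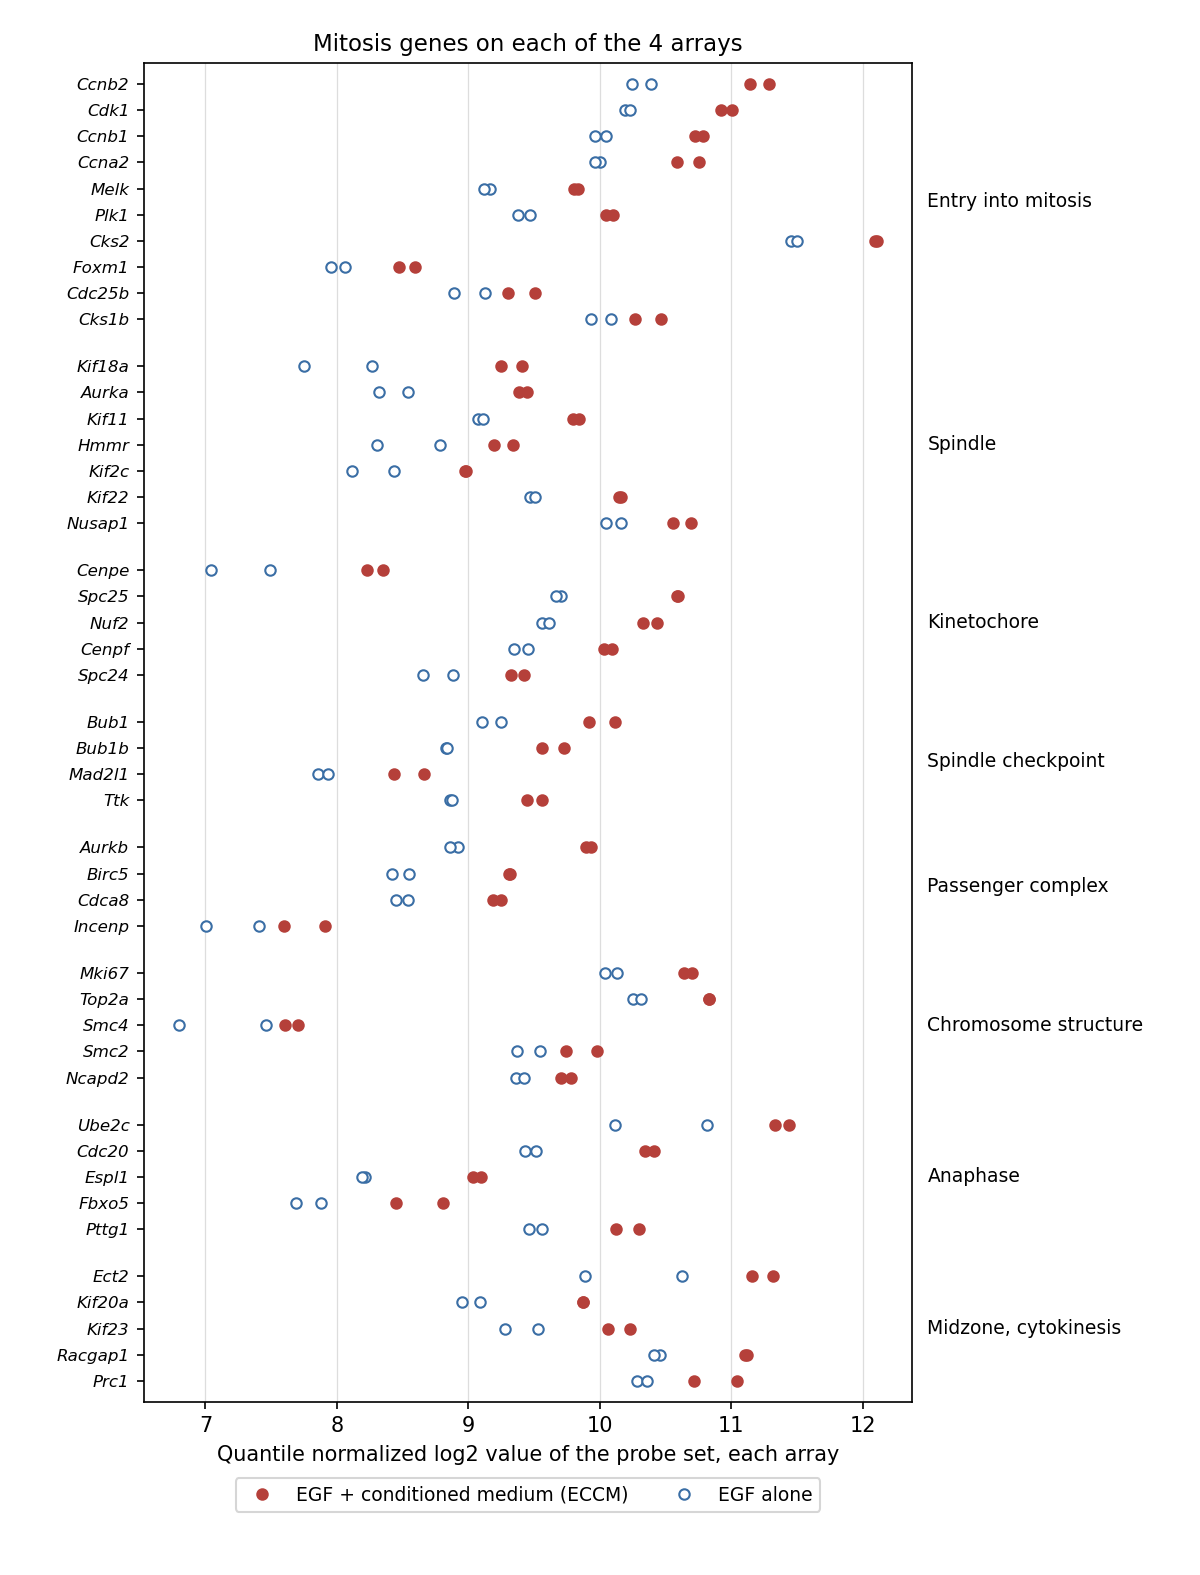
Quantile normalized log2 value (x axis) of the probe set of each of the 45 mitosis genes (rows, grouped by role) on each of the 4 arrays, with filled points for the 2 ECCM arrays and open points for the 2 EGF arrays. In every row the filled points lie to the right of the open ones, and levels are to be compared within a row only.

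The deposited values were not equalised between arrays, so the comparison was made under 3 scalings. The array medians of the deposited values were 6.84 and 6.56 log2 for the ECCM arrays, against 6.03 and 6.25 log2 for the EGF arrays. The median difference of all genes tested was 0.40 log2 as deposited, 0.00 log2 after quantile normalization and -0.16 log2 with arrays centred on their median. For the 45 mitosis genes the median difference was 1.06, 0.71 and 0.49 log2 in the same order, so the list stayed above the bulk of the genes by about the same distance. The count called higher was 45 as deposited (40.4% of all genes tested), 44 after quantile normalization and 39 with median-centred arrays (10.2% of all genes tested). In what follows, a gene rose only if it was called higher under all 3 scalings, which held for 39 of the 45 mitosis genes and for 9.12% of all genes tested. A gene fell only if it was called lower under all 3, which held for 0 of the 45 and for 1.78% of all genes tested. The remaining 6 were Cks1b, Cdc25b, Nusap1, Smc2, Ncapd2 and Smc4. With 3 arrays in place of 4, the median difference after quantile normalization was 0.69 to 0.71 log2, whichever array was left out. Fewer of the 45 genes were then called higher, as were fewer of all genes tested.

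**Figure D2:**
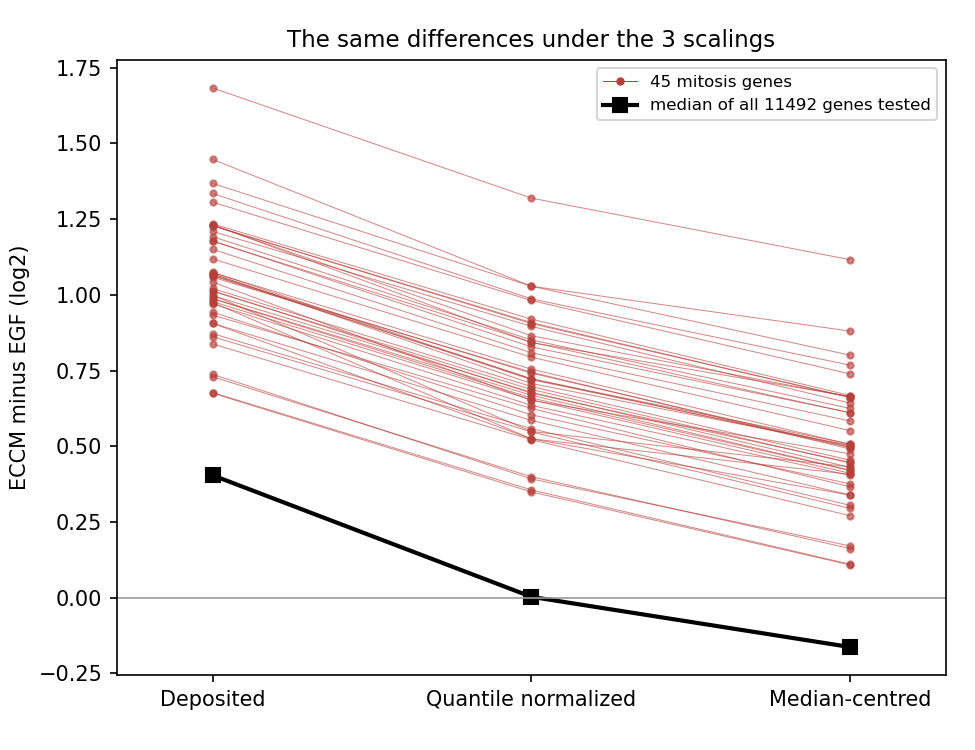
Difference of each of the 45 mitosis genes, ECCM minus EGF in log2 (y axis), under the 3 scalings (x axis), with the median of all 11492 genes tested as black squares. All mitosis genes stay above 0 and above the black line under each scaling, and the whole set moves down with it.

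Values below are quantile normalized log2 values per array and log2 differences, ECCM minus EGF, with the standard error (SE) of limma, unless called deposited. Arrays of the same condition were about as close for these genes as for all genes tested. The median of the 45 genes was 9.98 and 9.92 log2 on the ECCM arrays, against 9.35 and 9.28 log2 on the EGF arrays. The absolute gap between the 2 arrays of a condition had a median of 0.10 log2 over the 45 genes in both conditions. Over all genes tested it was 0.10 log2 for ECCM and 0.12 log2 for EGF. Among the 45, the gap reached 0.74 log2 between the EGF arrays (Ect2) and 0.36 log2 between the ECCM arrays (Fbxo5). On this scale neither replicate was higher throughout: of the 45 genes, 24 were higher in ECCM replicate 1 than in replicate 2, and 21 were higher in EGF replicate 1 than in replicate 2. Quantile normalization gives all arrays the same distribution, so such a balance is in part built in. As deposited, the median of the 45 genes was 10.23 and 10.00 log2 on the ECCM arrays, against 9.11 and 9.18 log2 on the EGF arrays. Across the 45 genes, the difference was unrelated to the brightness of the probe set (Pearson's r = -0.06, Spearman's rho = -0.03, a description over genes that share the same 4 arrays).

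Other properties of the cultures moved with the condition too. The 3′ to 5′ gap of the actin control probe sets, a measure of RNA integrity that is larger in degraded RNA, was 1.54 and 1.37 log2 on the ECCM arrays, against 1.99 and 2.08 log2 on the EGF arrays. Of all genes tested, 9.12% rose and 1.78% fell. Of 17 tested markers of retinal neurons 7 fell and 1 rose (summed linear level over 18 markers of 18611 to 18825 with ECCM, against 27855 to 29801 with EGF, with Pou4f1 too dim to be tested). After quantile normalization 15 of the 17 were called lower and 1 higher. Of 12 retinal progenitor markers 5 rose and 0 fell, with sums of 37129 to 37838 with ECCM and 28103 to 29738 with EGF. Among the risen was the cyclin gene Ccnd1 (12.56 and 12.61 log2 with ECCM, against 11.13 and 11.34 log2 with EGF). Pax6, the brightest, had 12.71 and 12.59 log2 with ECCM, against 12.77 and 12.85 log2 with EGF. Rax was lower after quantile normalization (-0.24 ± 0.07 SE) and with median-centred arrays, and was not called as deposited. Of 14 microglia and leukocyte markers 9 rose (sums over 16 markers of 1935 to 1966 with ECCM, against 1005 to 1119 with EGF, with Itgam and C1qb too dim to be tested). Of 12 mesenchymal and pericyte markers 10 rose (sums over 17 markers of 16370 to 17290 with ECCM, against 7042 to 9479 with EGF, with Lum, Dcn, Rgs5, Cspg4 and Thy1 too dim). Vim, which several cell types express, made up 84.5% to 85.0% of that sum with ECCM and 87.1% to 89.1% with EGF, and the other 16 markers summed to 2533 to 2593 with ECCM, against 909 to 1035 with EGF. Of 7 endothelial markers 2 rose (sums over 13 markers of 5887 to 5975 with ECCM, against 4417 to 4557 with EGF), and the defining endothelial genes Pecam1, Tek, Tie1, Emcn and Erg were too dim to be tested, as was Icam2. Kdr, which did not pass under all 3 scalings, made up 90.9% to 91.5% of that sum with ECCM and 89.3% to 91.9% with EGF, and the other 12 markers summed to 502 to 543 with ECCM, against 367 to 474 with EGF. Of 8 markers of Muller glia and astrocytes 3 rose and 0 fell (sums over 10 markers of 21763 to 22727 with ECCM, against 12475 to 14759 with EGF, with Aldh1l1 and Kcnj10 too dim). Rlbp1 of this list was lower after quantile normalization (-0.70 ± 0.08 SE) and with median-centred arrays, and was not called as deposited. Vim is in this list too, and the other 9 markers summed to 7925 to 8030 with ECCM, against 6314 to 6342 with EGF. The part of these shifts in the rise of the mitosis genes was not tested.

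Promoters of mitosis genes are known, mainly from human and mouse cells, for a short element called the cell cycle genes homology region, whose usual letters are TTTGAA, and for CCAAT boxes, to which the factor NF-Y binds. RefSeq promoters of the GRCr8 assembly, running from 250 bases before to 50 bases after the annotated start, were matched for 39 of the 45 genes (40 promoters, since Kif2c has a pair). On either strand, TTTGAA was found in 28 of the 40 (70.0%), against 11.6% of 10774 promoters of the genes tested. CCAAT was found in 31 of the 40 (77.5%), against 37.5%. Both occurred in 25 of the 40 (62.5%), against 4.84%. Variants of the first element were less frequent, with TTTAAA in 12 of the 40, against 8.93% and TTCGAA in 3 (7.5%, against 1.89%). The E2F-type letters TTCCCGC or TTGGCGC, typical of S phase genes, were found in 6 (15.0%, against 11.8%). The TATA box letters TATAAA were found in 1 (2.5%, against 6.73%), the promoter of Nusap1. Of 34 TTTGAA matches in the members, 29 lay between 100 bases before and 50 bases after the start. The share of matches in that span was not computed for all genes tested, so a preference for this position was not tested. These are matches of letters in a window of equal length, not tests of binding. Among the mitosis genes themselves, the difference between the conditions had a median of 0.68 log2 in the 28 genes with TTTGAA and 0.74 log2 in the 11 without, with ranges of 0.35 to 0.98 and 0.39 to 1.32 log2.

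The windows from 110 bases before to 10 bases after the start are shown for 10 genes, chosen by hand. Of these, 8 are among the genes that hold TTTGAA close to CCAAT. For contrast, Kif18a and Aurka rose among the most without TTTGAA. Capitals mark TTTGAA and CCAAT or their reverse complements TTCAAA and ATTGG. In Cdca8 the 2 elements share a base. Sequences are 5′ to 3′ in the direction of the gene.
Ccnb2 (chr8:79981649-79981768, - strand): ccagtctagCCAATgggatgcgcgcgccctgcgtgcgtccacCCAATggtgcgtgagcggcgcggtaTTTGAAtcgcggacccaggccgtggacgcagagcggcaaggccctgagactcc
Cdk1 (chr20:19265183-19265302, + strand): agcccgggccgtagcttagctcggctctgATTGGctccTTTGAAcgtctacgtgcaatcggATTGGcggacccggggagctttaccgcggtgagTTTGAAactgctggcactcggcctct
Cdc20 (chr5:137255790-137255909, - strand): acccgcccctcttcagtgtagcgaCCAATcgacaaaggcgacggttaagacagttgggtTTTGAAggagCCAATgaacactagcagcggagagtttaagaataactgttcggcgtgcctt
Espl1 (chr7:135302606-135302725, + strand): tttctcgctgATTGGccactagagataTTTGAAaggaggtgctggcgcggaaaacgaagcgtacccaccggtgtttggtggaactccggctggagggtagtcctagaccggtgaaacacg
Cdca8 (chr5:142483190-142483309, - strand): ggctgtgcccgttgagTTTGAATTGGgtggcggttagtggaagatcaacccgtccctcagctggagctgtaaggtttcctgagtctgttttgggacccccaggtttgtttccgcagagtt
Hmmr (chr10:25665206-25665325, - strand): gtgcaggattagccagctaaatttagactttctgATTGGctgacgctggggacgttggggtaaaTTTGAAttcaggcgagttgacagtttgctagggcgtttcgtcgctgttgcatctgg
Top2a (chr10:84473084-84473203, - strand): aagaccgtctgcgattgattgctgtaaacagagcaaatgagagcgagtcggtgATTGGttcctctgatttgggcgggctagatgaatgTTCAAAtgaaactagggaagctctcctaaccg
Cks2 (chr17:13727510-13727629, - strand): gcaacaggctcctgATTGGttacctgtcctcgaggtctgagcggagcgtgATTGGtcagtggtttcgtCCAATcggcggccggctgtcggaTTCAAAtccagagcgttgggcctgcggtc
Kif18a (chr3:116218897-116219016, + strand): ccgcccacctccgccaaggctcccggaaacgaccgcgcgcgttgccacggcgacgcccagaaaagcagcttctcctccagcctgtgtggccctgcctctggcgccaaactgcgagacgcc
Aurka (chr3:181560760-181560879, - strand): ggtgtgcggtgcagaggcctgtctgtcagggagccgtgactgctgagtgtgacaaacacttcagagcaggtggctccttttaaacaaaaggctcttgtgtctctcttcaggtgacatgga
Counting the base at the start as 1 and the base before it as -1, TTTGAA begins at -43 in Ccnb2, -51 in Cdc20, -83 in Espl1, -94 in Cdca8 and -46 in Hmmr. Cdk1 holds it at -72 and at -16. Top2a and Cks2 carry it on the opposite strand, at -22 and -19. Each of these 8 genes rose, as did 39 of the 45 mitosis genes. Other members with both elements close together did not pass under all 3 scalings. Among them were Cks1b (CCAAT at -83, TTTGAA at -59, difference 0.36 log2) and Ncapd2 (CCAAT at -96, TTTGAA at -71, difference 0.35 log2). The Aurka window holds TTTAAA at -32, and that of Kif18a holds the E2F-type letters at -10 on the opposite strand.

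Genes of entry into mitosis rose in 8 of 10, with a median of 0.66 log2. Cdk1, the kinase that drives mitosis, had 11.01 and 10.92 log2 on the ECCM arrays, against 10.20 and 10.23 log2 on the EGF arrays. Its partner cyclins were higher by similar amounts. For cyclin B2, Ccnb2, the values were 11.14 and 11.29 log2 with ECCM, against 10.39 and 10.25 log2 with EGF, a 1.86-fold rise (0.90 ± 0.08 SE, limma adjusted p = 2.58e-05). Cyclin B1, Ccnb1, rose by 0.74 ± 0.08 log2 (SE), Cdk1 by 0.75 ± 0.07 log2 (SE) and cyclin A2, Ccna2, by 0.69 ± 0.08 log2 (SE). The second probe set of Ccnb1 gave 0.86 log2. Plk1, a kinase that activates Cdk1 and matures the centrosomes, rose by 0.65 ± 0.08 log2 (SE), and the kinase Melk by 0.68 ± 0.08 log2 (SE). The transcription factor Foxm1, which activates many G2 and M phase genes, had 8.47 and 8.60 log2 with ECCM, against 7.96 and 8.06 log2 with EGF. Its rise of 0.52 ± 0.11 log2 (SE) through this probe set was among the smaller ones. The other, dimmer probe set of Foxm1 gave 0.73 log2, and the mean of its probe sets gave 0.63 log2. With 3 arrays Foxm1 lost the call whichever array was omitted, with differences of 0.46 to 0.60 log2.

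The small Cdk-binding proteins Cks1b and Cks2 differed in size of response. Cks2, which binds the Cdk1 complex, had 12.11 and 12.10 log2 with ECCM, against 11.46 and 11.50 log2 with EGF, and rose by 0.62 log2 (95% interval 0.49 to 0.76). Cks1b, which also serves the degradation of the Cdk inhibitor p27, had 10.27 and 10.46 log2 with ECCM, against 10.09 and 9.93 log2 with EGF. Its difference was 0.36 log2 (0.15 to 0.56) after quantile normalization and 0.11 log2 with median-centred arrays (adjusted p = 0.483), so it was not counted as risen. The difference between these 2 responses was not tested. Cdc25b, a phosphatase that activates Cdk1 at the G2 to M transition, was in the same position, with 9.50 and 9.30 log2 on the ECCM arrays, against 8.89 and 9.13 log2 on the EGF arrays (0.39 ± 0.11 SE, adjusted p = 0.0188, and 0.204 with median-centred arrays). Neither Cks1b nor Cdc25b was called in any fit of 3 arrays.

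**Figure D3:**
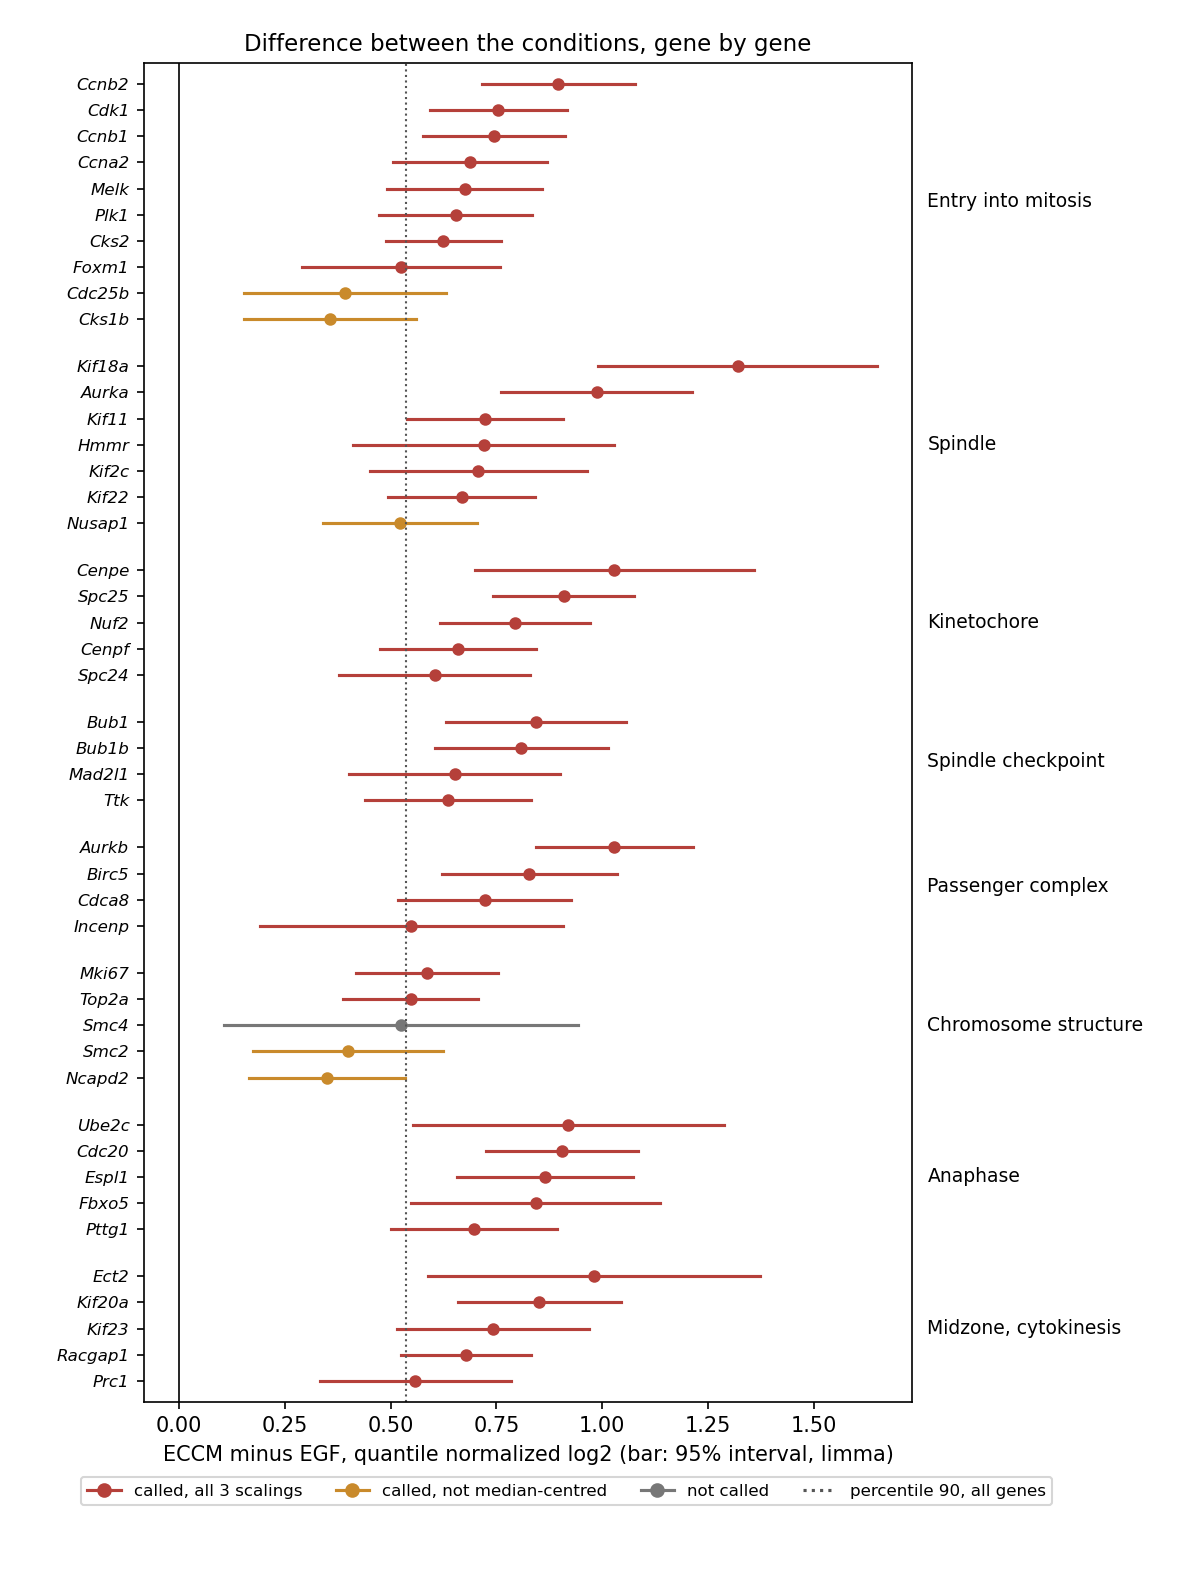
Difference of each mitosis gene between the conditions, ECCM minus EGF in quantile normalized log2 (x axis), with limma's 95% interval as a bar and genes in rows by role. Red genes were called under all 3 scalings (39), orange ones were not called with median-centred arrays, grey is Smc4, and the dotted line is percentile 90 of all genes tested (0.54 log2).

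Spindle genes rose in 6 of 7 (median 0.72 log2). Kif18a, a kinesin that dampens the movements of chromosomes on the spindle, had the highest difference of the 45, with 9.41 and 9.25 log2 on the ECCM arrays, against 8.27 and 7.75 log2 on the EGF arrays. That is a 2.50-fold rise (1.32 ± 0.15 SE, limma adjusted p = 9.47e-05), and the EGF arrays were 0.52 log2 apart. Without ECCM replicate 1 its difference was 1.26 log2 with adjusted p = 0.0526. Aurka, the aurora kinase of the spindle poles, had 9.39 and 9.45 log2 with ECCM, against 8.54 and 8.32 log2 with EGF (0.99 ± 0.10 SE). Kif11, the motor that pushes the spindle poles apart, had 9.79 and 9.84 log2 with ECCM, against 9.08 and 9.11 log2 with EGF (0.72 ± 0.08 SE), and its other probe set gave 0.81 log2. The microtubule depolymerase Kif2c (0.71 ± 0.12 SE), the chromokinesin Kif22 (0.67 ± 0.08 SE) and the hyaluronan receptor and spindle protein Hmmr (0.72 ± 0.14 SE) rose too. Hmmr was lost without EGF replicate 1, ECCM replicate 1 or ECCM replicate 2, with differences of 0.47 to 0.80 log2, and Kif2c without either ECCM array (adjusted p = 0.0604 and 0.078). The spindle stabilizer Nusap1 had 10.56 and 10.69 log2 with ECCM, against 10.16 and 10.04 log2 with EGF. It differed by 0.52 log2 through this probe set and by 0.75 log2 through its other, slightly dimmer one, and with median-centred arrays the first had adjusted p = 0.0662. Its call was also lost without ECCM replicate 2 (0.0506) and without EGF replicate 2 (0.0538).

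All 5 kinetochore genes rose. Cenpe, the kinesin that carries chromosomes to the spindle equator, had 8.23 and 8.35 log2 on the ECCM arrays, against 7.49 and 7.04 log2 on the EGF arrays, a 2.04-fold rise (1.03 ± 0.15 SE). Spc25, Nuf2 and Spc24 belong to the Ndc80 complex, which couples kinetochores to microtubules. Spc25 had 10.59 and 10.60 log2 with ECCM, against 9.71 and 9.67 log2 with EGF (0.91 ± 0.08 SE). Nuf2 rose by 0.79 ± 0.08 log2 (SE) and Spc24 by 0.60 ± 0.10 log2 (SE), and Spc24 was lost without EGF replicate 2 or either ECCM array (adjusted p = 0.0503 to 0.0658). Cenpf, a large protein of the kinetochore corona, rose by 0.66 ± 0.08 log2 (SE). Cenpe was lost without ECCM replicate 1 (1.11 log2, adjusted p = 0.0585) and without ECCM replicate 2 (0.98 log2, 0.0545).

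The 4 genes of the spindle assembly checkpoint, which holds back anaphase until all chromosomes are attached, rose. Bub1, a kinase that recruits checkpoint proteins, had 10.12 and 9.92 log2 on the ECCM arrays, against 9.10 and 9.25 log2 on the EGF arrays (0.84 ± 0.10 SE). Bub1b, which encodes the checkpoint protein BubR1, had 9.56 and 9.73 log2 with ECCM, against 8.83 and 8.84 log2 with EGF (0.81 ± 0.09 SE). The checkpoint kinase Ttk rose by 0.64 ± 0.09 log2 (SE), and its other probe set gave 0.67 log2. Mad2l1, which binds and inhibits Cdc20, rose by 0.65 ± 0.11 log2 (SE), with 0.94 and 0.35 log2 in its other probe sets, and was lost without either EGF array and without ECCM replicate 2 (adjusted p = 0.0538 to 0.0569).

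The 4 genes of the chromosomal passenger complex, which corrects wrong attachments and later moves to the midzone, rose as well. Aurkb, its kinase, had 9.90 and 9.94 log2 on the ECCM arrays, against 8.92 and 8.86 log2 on the EGF arrays. This 2.04-fold rise (1.03 ± 0.08 SE, limma adjusted p = 1.29e-05) was the one with the lowest p of the 45 genes. Birc5, which encodes survivin, had 9.32 and 9.31 log2 with ECCM, against 8.42 and 8.55 log2 with EGF (0.83 ± 0.09 SE). Cdca8, the borealin subunit, rose by 0.72 ± 0.09 log2 (SE). Incenp, the scaffold, had 7.91 and 7.60 log2 with ECCM, against 7.003 and 7.406 log2 with EGF. Its rise of 0.55 ± 0.16 log2 (SE, adjusted p = 0.0253) was not called in any fit of 3 arrays, nor with the mean of its 3 probe sets (0.43 log2, adjusted p = 0.101). The fits of 3 arrays gave 0.34 log2 (without EGF replicate 1) to 0.74 log2 (without EGF replicate 2), and its other probe sets gave 0.79 and, in the dimmest, -0.05 log2.

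Chromosome structure genes had the lowest median of the 8 roles, 0.52 log2, and 2 of 5 rose. Mki67, whose protein Ki-67 coats mitotic chromosomes and marks cycling cells, had 10.70 and 10.64 log2 on the ECCM arrays, against 10.04 and 10.13 log2 on the EGF arrays (0.59 ± 0.08 SE). Top2a, the topoisomerase that untangles sister DNA, had 10.83 and 10.83 log2 with ECCM, against 10.25 and 10.31 log2 with EGF (0.55 ± 0.07 SE), and its other probe set gave 0.90 log2. The 3 condensin genes did not pass under all 3 scalings. Smc2, a core ATPase subunit, had 9.98 and 9.74 log2 with ECCM, against 9.37 and 9.54 log2 with EGF (0.40 ± 0.10 SE, adjusted p = 0.0125, and 0.206 with median-centred arrays). For Ncapd2, a regulatory subunit, the values were 9.71 and 9.78 log2 with ECCM, against 9.36 and 9.42 log2 with EGF. That difference, 0.35 ± 0.08 log2 (SE), was the lowest of the 45 (adjusted p = 0.00898, and 0.411 with median-centred arrays). Neither Smc2 nor Ncapd2 was called in any fit of 3 arrays. Smc4, the other core ATPase, had 7.70 and 7.61 log2 with ECCM, against 7.462 and 6.798 log2 with EGF. The EGF arrays of Smc4 were 0.66 log2 apart, its difference was 0.52 ± 0.19 log2 (SE, adjusted p = 0.0569), and its other, dim probe set gave -0.43 log2. Without EGF replicate 1 Smc4 was called higher (0.84 log2, adjusted p = 0.0285), and without EGF replicate 2 its difference was 0.19 log2 (adjusted p = 0.323). The mean of its probe sets gave 0.05 log2 (adjusted p = 0.897).

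The 5 anaphase genes had the highest median of the 8 roles, 0.87 log2, and all 5 rose. Cdc20, the activator of the anaphase-promoting complex, had 10.42 and 10.34 log2 on the ECCM arrays, against 9.52 and 9.43 log2 on the EGF arrays (0.91 ± 0.08 SE, 1.87-fold). It had 5 probe sets, and the other 4 gave 0.57, 0.19, 0.39 and 0.79 log2 from the brightest to the dimmest, while the mean of all 5 gave 0.57 log2 (adjusted p = 0.00595). Ube2c, the ubiquitin-conjugating enzyme of the same complex, had 11.34 and 11.44 log2 with ECCM, against 10.81 and 10.12 log2 with EGF. Its rise of 0.92 ± 0.17 log2 (SE) was lost without either ECCM array (0.87 to 0.97 log2, adjusted p = 0.117 to 0.121). Its EGF arrays were 0.70 log2 apart, and it was 0.57 log2 without EGF replicate 2 and 1.27 log2 without EGF replicate 1, called in both cases. Espl1, which encodes the protease separase that cuts cohesin, had 9.10 and 9.04 log2 with ECCM, against 8.22 and 8.19 log2 with EGF (0.87 ± 0.09 SE). Pttg1, which encodes securin, the inhibitor of separase, rose by 0.70 ± 0.09 log2 (SE). Fbxo5, which encodes Emi1, an inhibitor of the anaphase-promoting complex before mitosis, rose by 0.84 ± 0.13 log2 (SE) and was lost without EGF replicate 2 or ECCM replicate 2 (0.74 and 0.67 log2).

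Midzone and cytokinesis genes rose in 5 of 5. Ect2, the exchange factor that activates RhoA at the cleavage site, had 11.16 and 11.32 log2 on the ECCM arrays, against 10.63 and 9.89 log2 on the EGF arrays (0.98 ± 0.18 SE). As for Ube2c, the EGF arrays of Ect2 were far apart, by 0.74 log2, and its call was lost without either ECCM array, with differences of 0.91 and 1.06 log2. It was 0.61 log2 without EGF replicate 2 and 1.35 log2 without EGF replicate 1, called in both cases. Kif20a, a kinesin that moves the passenger complex to the midzone, had 9.87 and 9.88 log2 with ECCM, against 8.96 and 9.09 log2 with EGF (0.85 ± 0.09 SE). Racgap1 and Kif23 form the centralspindlin complex. Racgap1 had 11.10 and 11.12 log2 with ECCM, against 10.45 and 10.41 log2 with EGF (0.68 ± 0.07 SE), and its other probe set gave 0.61 log2. Kif23 rose by 0.74 ± 0.10 log2 (SE) through its bright probe set, while a dim one gave -0.46 log2, and their mean was 0.14 log2 (adjusted p = 0.390). Without ECCM replicate 1 its call was lost too (0.66 log2, adjusted p = 0.062). The microtubule bundler Prc1 had 11.05 and 10.71 log2 with ECCM, against 10.28 and 10.36 log2 with EGF (0.56 ± 0.10 SE), and was lost without either EGF array and without ECCM replicate 1 (adjusted p = 0.0675 to 0.103).

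Probe sets other than the brightest were available for 15 of the 45 genes, 20 in all. Of these 20, 17 were higher with ECCM and 3 lower, namely the dimmest ones of Kif23, Smc4 and Incenp, whose means over the 4 arrays were 4.99, 4.90 and 4.34 log2 as deposited. The limit under which probe sets were left out was 4.77 log2.

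The wider machinery of division was followed through 155 further genes in 6 lists, of which 131 could be tested. Of these, 65 were higher (49.6%, against 16.5% of all genes tested) and 4 lower (against 14.6% of all genes tested) after quantile normalization. Of the 131, 37 rose (28.2%, against 9.12%) and 0 fell (against 1.78%), and the median difference was 0.29 log2. Without EGF replicate 1, EGF replicate 2, ECCM replicate 1 and ECCM replicate 2, in turn, 44, 35, 24 and 30 of them were higher. The lists differed in their counts, which are to be read against the 9.12% of all genes tested that rose. Of 29 other kinetochore and centromere genes 10 rose (median 0.46 log2), among them the outer kinetochore protein Ska1 (0.93 ± 0.10 SE), the inner kinetochore protein Cenpt (0.87 ± 0.10 SE), the protector of centromeric cohesion Sgo1 (0.61 ± 0.08 SE) and the Cenpa chaperone Hjurp (0.67 ± 0.10 SE). Of 28 other genes of G2/M control and mitotic exit 12 rose (median 0.44 log2), led by Depdc1 (1.41 ± 0.11 SE), Fam83d (0.83 ± 0.11 SE), Cdca3 (0.81 ± 0.08 SE) and the phosphatase Cdkn3 (0.72 ± 0.08 SE). In that list Cdc25a, the Cdc25 phosphatase that also acts at the start of S phase, was lower after quantile normalization (-0.36 ± 0.10 SE) and with median-centred arrays, and was not called as deposited. Of 29 other spindle and centrosome genes 10 rose (median 0.29 log2), including Dlgap5 (1.04 ± 0.11 SE), the kinesin Kif20b (0.89 ± 0.09 SE) and Tacc3 (0.71 ± 0.10 SE). Its relative Tacc2 (-0.59 ± 0.07 SE) and the kinesin Kif2a (-0.25 ± 0.08 SE), which neurons also use, were lower under the same 2 scalings and not called as deposited. Of 14 other cytokinesis genes 4 rose, among them Shcbp1 (0.96 ± 0.11 SE) and the septins Septin9 (0.77 ± 0.08 SE) and Septin2 (0.68 ± 0.06 SE).

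The remaining lists of the machinery lay close to the bulk of the genes. Of the 16 tested genes of the anaphase-promoting complex core with Fzr1 and Ube2s, 0 rose and 0 fell, and the median was 0.05 log2 with a range of -0.09 to 0.30 log2. After quantile normalization 1 of the 16, Cdc26, was higher (0.29 ± 0.09 SE, limma adjusted p = 0.0327), and Anapc7 had 0.30 ± 0.11 log2 (SE, adjusted p = 0.0526). The activator Cdc20 and the enzyme Ube2c, which work on this core, rose by 0.91 and 0.92 log2. Of 15 cohesin and other condensin genes 1 rose, the condensin II subunit Ncapg2, with 7.52 and 7.59 log2 on the ECCM arrays, against 6.22 and 6.46 log2 on the EGF arrays (1.21 ± 0.15 SE). The condensin I subunit Ncaph (0.38 ± 0.08 SE) and the cohesin acetyltransferase Esco2 (0.45 ± 0.10 SE) were higher after quantile normalization and as deposited but not with median-centred arrays. The cohesin regulator Pds5b was lower after quantile normalization (-0.27 ± 0.08 SE) and with median-centred arrays but was not called as deposited.

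**Figure D4:**
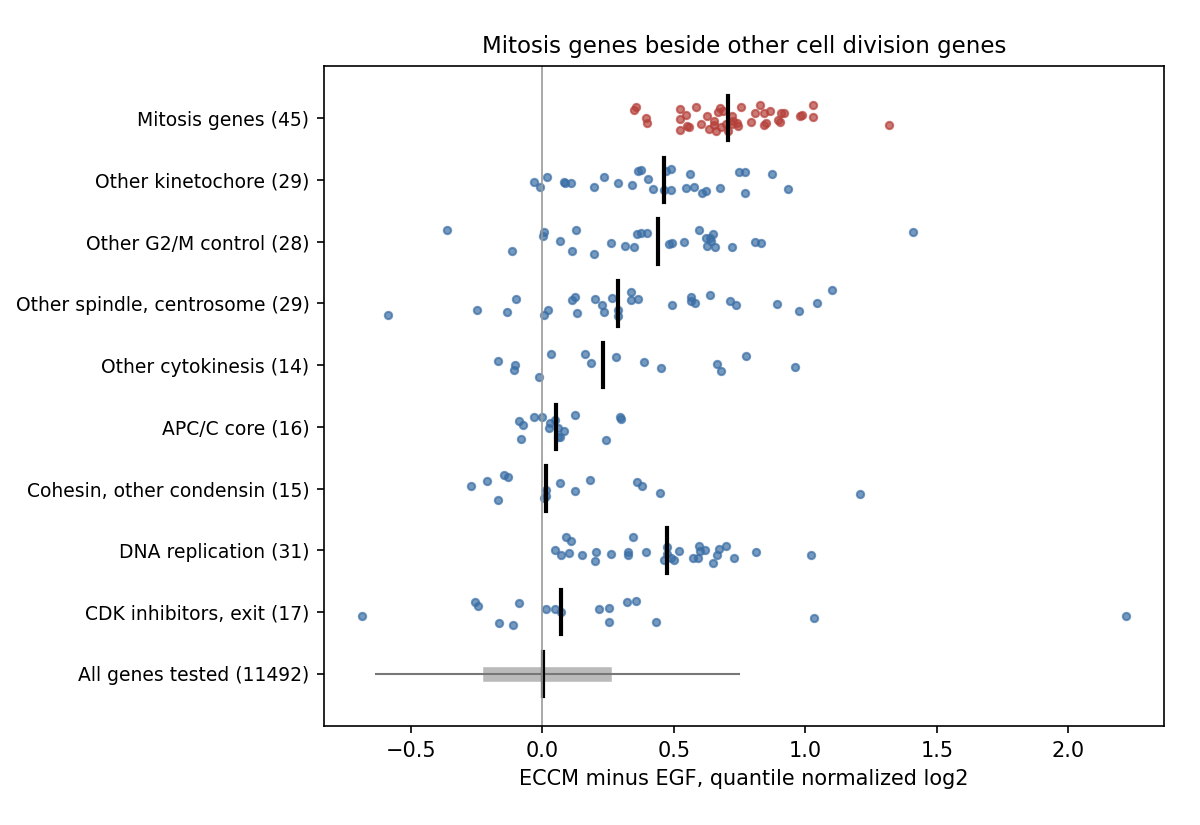
Difference between the conditions, ECCM minus EGF in quantile normalized log2 (x axis), for the 45 mitosis genes (top row), 8 lists of other cell division genes and all genes tested (bottom row), with 1 point a gene, a black line at each median, and for all genes a thick bar from percentile 25 to 75 and a thin one from 5 to 95. The 45 mitosis genes all lie above 0, and the core of the anaphase-promoting complex sits near the median of all genes.

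Genes before and after mitosis were set beside them. Of 31 DNA replication genes, 21 were higher (67.7%, against 16.5% of all genes tested) and 0 lower after quantile normalization. Their median was 0.47 log2, and 11 of them rose (35.5%, against 9.12%). Gins1 of the replicative helicase (0.81 ± 0.11 SE), Mcm5 (0.73 ± 0.10 SE) and the S phase factor E2f1 (0.62 ± 0.09 SE) were among them, while the sliding clamp Pcna (0.46 ± 0.07 SE) was higher but did not pass under all 3 scalings. Of 17 Cdk inhibitors and genes of cell cycle exit, 2 rose (11.8%, close to the 9.12% of all genes tested) and 0 fell (median 0.07 log2). These were the stress-induced Gadd45b, with 8.74 and 8.90 log2 on the ECCM arrays, against 6.67 and 6.53 log2 on the EGF arrays (2.22 ± 0.12 SE), and the Cdk inhibitor Cdkn1c (1.03 ± 0.08 SE). The antiproliferative gene Tob2 (-0.69 ± 0.07 SE) and cyclin G2, Ccng2 (-0.25 ± 0.07 SE), were lower after quantile normalization and with median-centred arrays, and not called as deposited. Whether the shift of the mitosis genes differs from that of the replication genes was not tested.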

How the data were processed

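An Affymetrix rat array, with probes near the 3′ ends of transcripts, measured the RNA of 4 cultures. The deposited values are log2 probe set values made by the authors with RMA in GenePattern, per the series' design text; its version and between-array options are not given in the sources used here. Since array medians differed, the deposited log2 values were quantile normalized over all 31099 probe sets. Of these, 20832 had 1 gene symbol in the platform annotation. Each gene was read through its brightest probe set over the 4 arrays, and the lowest 30% of probe set means (under 4.77 log2) were left out, leaving 11492 genes, all 45 members included. For ECCM minus EGF, limma 3.58.1 (R 4.3.3) was used without a block. Its two-sided moderated test took prior variances that follow intensity, and p-values were adjusted by Benjamini-Hochberg over all 11492 genes (threshold 0.05). On deposited values limma pooled the spread of all genes. Summed marker levels add the linear quantile normalized values of a list. The labels call the arrays of a group biological replicates. The fit was tested on simulated arrays with the same spread for all genes and no shift between arrays, which does not test the scalings. The members and lists were chosen with earlier results of these data known, and any member with a probe set could be named. In the other lists of cell division genes, up to 4 genes with the smallest p, and those lower, were named. In the marker lists a few genes were named after their values were seen. The kinetochore, checkpoint and other roles were assigned by hand. Alternatives were the scaling, the filter, the mean of all probe sets, no intensity trend, the replicate block and leaving out each array. The number of arrays limits the precision. Python 3.11.15 and matplotlib 3.10.9 drew the figures.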

Additional observations from a re-analysis of the deposited data

How the results depend on the processing

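Among the 45 mitosis genes no difference changed sign under any alternative. With median-centred arrays 5 genes were no longer called, without the intensity trend 6 and with the mean of all probe sets 2; Smc4 became called on deposited values, and no call changed without the filter or with the lowest 50% left out. The median difference of the members was 1.06 log2 on deposited values and 0.49 log2 with median-centred arrays, as the bulk of the genes moved too. With 3 arrays the members called higher numbered 29 to 36, the wider mitosis genes 24 to 44 (37 with median-centred arrays, 92 as deposited), and all genes 557 to 1061 higher and 487 to 736 lower, against 1891 and 1673 with all 4 arrays; fewer samples leave less power, and the lone array of a group is assumed to vary like the others. All genes numbered 4643 higher and 205 lower on deposited values and 1176 higher and 3704 lower with median-centred arrays, so higher genes made up 95.8% and 24.1% of calls there, against 53.1% after quantile normalization. Arrays with equal replicate numbers deviated from their groups with a correlation of -0.03 (-0.12 as deposited), over 2 pairs, and no label ties the numbers to embryo pools. With the replicate block, the members called higher were 45 and those called under all 3 scalings 38, with 1823 genes higher and 1570 lower; crossing the numbers, chosen after seeing the data, gave 45 and 40, with 2136 higher and 1876 lower.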
